A study of Cyprinus carpio with 2 samples.

Results

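Transcripts of 4 genes that act on meiotic chromosomes, sycp1, sycp2l, meiob and ccdc79, were compared between the immature testis and ovary of juvenile common carp (Cyprinus carpio). The members are the rows whose first gene name is one of these symbols. Rows came from the expression table, plus those of the authors' testis list that it lacks. The members came to 5 unigenes (numbered transcript units) among 22634. RNA sequencing gave 1 library of testis and 1 of ovary, both from juveniles of 110 to 130 days post hatch. The labels name no strain, genotype or treatment and do not say how many fish a library holds. As each tissue has 1 library, differences have no replicate check and are given without a p-value. Every 95% interval is an exact Clopper-Pearson interval for a ratio of reads and covers counting error only. In whole gonads, fewer cells of a type and less RNA per cell cannot be told apart.

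In the first meiotic division, homologous chromosomes pair, are held together along their length by the synaptonemal complex, and exchange DNA at programmed breaks. Telomeres are at that time tethered to the nuclear envelope, which moves the chromosomes while they search for their partners. Both the male and the female germ line go through these steps, the oocyte early in its growth and the testis as spermatocytes form. The protein of sycp1 forms the transverse filaments that bridge paired axes. The protein of sycp2l is related to the axis protein SYCP2, and in mice it is an oocyte protein. MEIOB binds single-stranded DNA during recombination together with SPATA22 and replication protein A. The gene ccdc79, also named terb1, encodes a protein that joins telomeres to the nuclear envelope together with TERB2 and MAJIN, as worked out in mice.

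Summed over the 22634 unigenes, the ovary library gave 4311799 reads (median 35) and the testis library 1926860 (median 29). The columns carry no tissue name, so every direction rests on the titles of the authors' lists, all 127 unigenes of the ovary list being higher in column A and all 171 of the testis list in column B. As deposited, the median unigene lay 1.78-fold toward ovary, a log2 ratio of -0.83, and folds are given relative to that median unless called deposited. A score here means log2((testis + 1)/(ovary + 1)) from the deposited units, minus its median over all unigenes. Of the oocyte markers, 23 of 24 unigenes (95.8%) were at least 4-fold higher in ovary, against 11.2% of all unigenes tested. The 24 held 216332 ovary and 12452 testis reads in all. Of the markers of Sertoli and Leydig cells, amh, cldn11a, dmrt1-1, sox9a and wt1a had 1 unigene each. All 5 are in the authors' testis list and were at least 4-fold higher in testis, with 32 ovary and 2303 testis reads. Over all unigenes tested that share was 13.8%. For the other symbols of the marker list, gsdf and the Leydig cell genes insl3, cyp17a1 and hsd3b1, no row was found, so no Leydig cell marker was measured. Of the list set for female somatic cells, fshr alone had a row, with 1 ovary and 191 testis reads. Its deposited protein name is Thyrotropin receptor. It is known from the authors' testis list alone, which fixed its direction, so it does not serve as a female marker here. Of the Sertoli cell markers, cldn11a (9 ovary and 685 testis reads) and wt1a (2 and 195) are likewise known from the authors' testis list alone. Their direction was fixed in the same way. Of the germ line markers, the 2 dazl unigenes scored 0.52 and 0.55, with deposited log2 ratios of -0.31 and -0.28. The 2 nanos3 unigenes scored -5.14 and -4.24, toward ovary. Only 1 of 10 spermatid and sperm symbols had a row, spata6, with 173 ovary and 213 testis reads. Oocyte markers were thus higher in the same library as sycp2l. The Sertoli cell markers not known from the testis list alone, amh, dmrt1-1 and sox9a, were higher in the same library as the other members. They too are in that list. By score, the germ line markers with rows, dazl and nanos3, went both ways. No row was found for ddx4, piwil1, piwil2, nanos2 or gfra1a, the others of that marker list. The marker lists were chosen with earlier results of these data known, and the part of the markers in the results was not tested.

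Of the 4 genes, 3 were read almost entirely in the testis library and the other mostly in the ovary library. Those 3, sycp1, meiob and ccdc79, have rows only through the authors' testis list, which fixed their direction. Their intervals do not allow for that choice, so the ratios are a description. The transverse filament gene sycp1 (Unigene_68253) had 1 ovary read and 183 testis reads, or 2.31 and 317 deposited units. The ratio was 244-fold higher in testis (95% interval 43.2 to 9689), and its width comes from the single ovary read. The deposited values alone differed 137-fold.

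The recombination gene meiob (Unigene_52041) had 2 ovary reads and 322 testis reads, or 4.62 and 558 deposited units. It was 215-fold higher in testis (95% interval 58.9 to 1780.2). The telomere tether gene ccdc79 (Unigene_65339) had 2 ovary reads and 205 testis reads, or 4.62 and 355 deposited units. It was 137-fold higher in testis (95% interval 37.4 to 1136). The intervals of sycp1, meiob and ccdc79 overlapped, so no order among their ratios was resolved at this depth.

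The ovary-rich gene was sycp2l, with 2 unigenes of consecutive numbers. Unigene_7759 had 140 ovary reads and 21 testis reads and was 5-fold higher in ovary (95% interval 3.15 to 8.33). Unigene_7760 had 143 ovary reads and 15 testis reads and was 7.15-fold higher in ovary (95% interval 4.19 to 13.1). The 2 unigenes had the same direction and overlapping intervals, and summed they were 5.90-fold higher in ovary (95% interval 4.16 to 8.59). As deposited the folds were 8.89 and 12.7, and with equal totals the scores were -1.54 for Unigene_7759, no longer 4-fold, and -2.04 for Unigene_7760. Unlike the other members, sycp2l was read in both libraries well above the lowest value of 1 read. Its deposited protein name is LOC100149910 protein (Fragment), so the symbol is the only statement that it is sycp2l, and those of sycp1 and meiob are listed as uncharacterized protein.

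**Figure D1:**
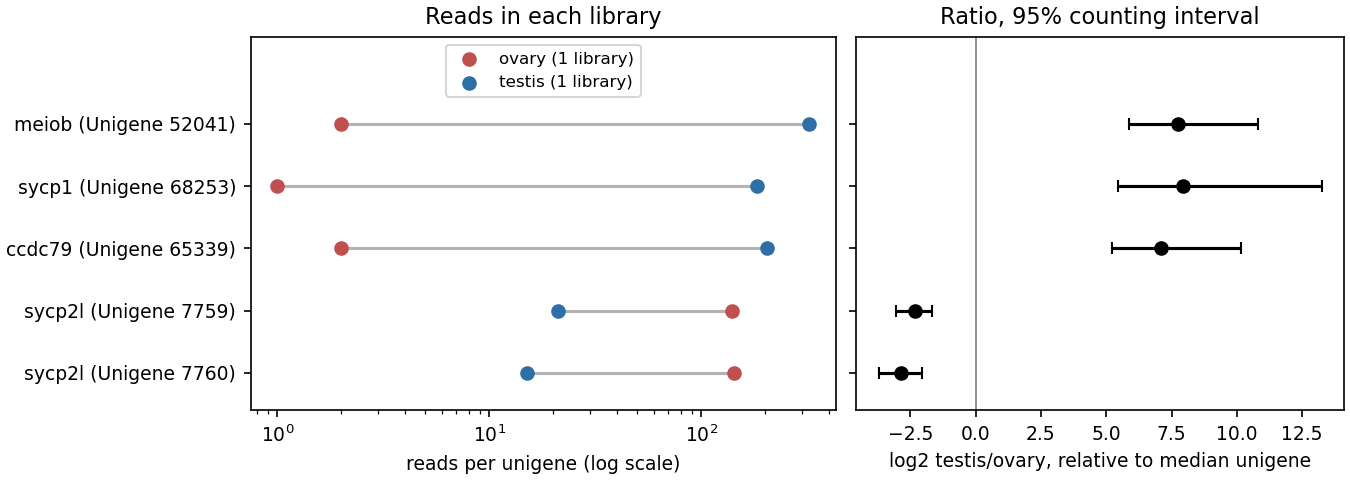
Left, reads per unigene in the ovary (red) and testis (blue) library on a log scale; right, log2 of the testis to ovary ratio relative to the median unigene, with bars for the 95% counting interval and 1 library per tissue. The sycp1, meiob and ccdc79 points lie at 1 or 2 ovary reads and 183 to 322 testis reads, and the sycp2l unigenes lie on the other side of 0.

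These differences were read against all unigenes. At least 5 units in the higher library and at least 4-fold were asked of a unigene, and 13.8% of the 21649 tested were higher in testis and 11.2% higher in ovary. As deposited, those shares were 6.14% and 23.2%. All 5 member unigenes passed the minimum and the 4-fold threshold, 3 toward testis and 2 toward ovary. The scores of meiob (7.46), sycp1 (7.41) and ccdc79 (6.81) ranked 31, 33 and 88 from the testis end of all unigenes. These 3 genes have rows only through the authors' testis list, so their place at that end follows from how they entered. In the expression table itself, 1, 1 and 7 unigenes scored at least as high as meiob, sycp1 and ccdc79. The scores of sycp2l were -2.79 and -2.29. Of all unigenes, 4.98% lay at least as far toward ovary as Unigene_7760 and 8.06% as Unigene_7759.

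Scores differed between low and high unigene numbers. Divided at the median number, lower-numbered unigenes had a median score of -0.88 and higher-numbered ones 1.07. The sycp2l unigenes belong to the lower numbers, where 8.77% and 14.3% of unigenes lay at least as far toward ovary, and sycp1, meiob and ccdc79 belong to the higher ones. Relative to the median of the lower numbers, sycp2l scored -1.91 for Unigene_7760 and -1.41 for Unigene_7759. Thus the sycp2l direction was kept, but neither unigene was 4-fold apart on that scale. Neighbouring numbers often share a symbol, as in 4300 of 11986 consecutive pairs, and the scores of such pairs differed by a median of 0.65. The sycp2l pair differed by 0.50.

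The 3 testis-rich members entered in another way than sycp2l. All 3 are known from the authors' testis list and are missing from the expression table used here, so that list, chosen for being higher in testis, fixed their direction. Among the 171 unigenes of that list, by the ratio of the values themselves, sycp1 ranked 26, meiob 37 and ccdc79 88. Their ovary reads were like those of the list as a whole, whose median was 2 ovary and 247 testis reads. Of the 147 unigenes found in the testis list alone, only 1 had another unigene of its symbol in the expression table. In the ovary list 59 of 127 unigenes had one, and of the 24 testis-list unigenes that the table does hold, 19 had one. Over the whole expression table, 19160 of 22487 unigenes (85.2%) had one. Each of sycp1, meiob and ccdc79 is therefore known here from a single unigene, and whether other unigenes of these genes were read differently was not tested. The sycp2l unigenes are in neither of the authors' lists, and the authors' deposited table gives them p-values of 0.152 (Unigene_7760) and 0.208 (Unigene_7759), by a method that no header names.

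**Figure D2:**
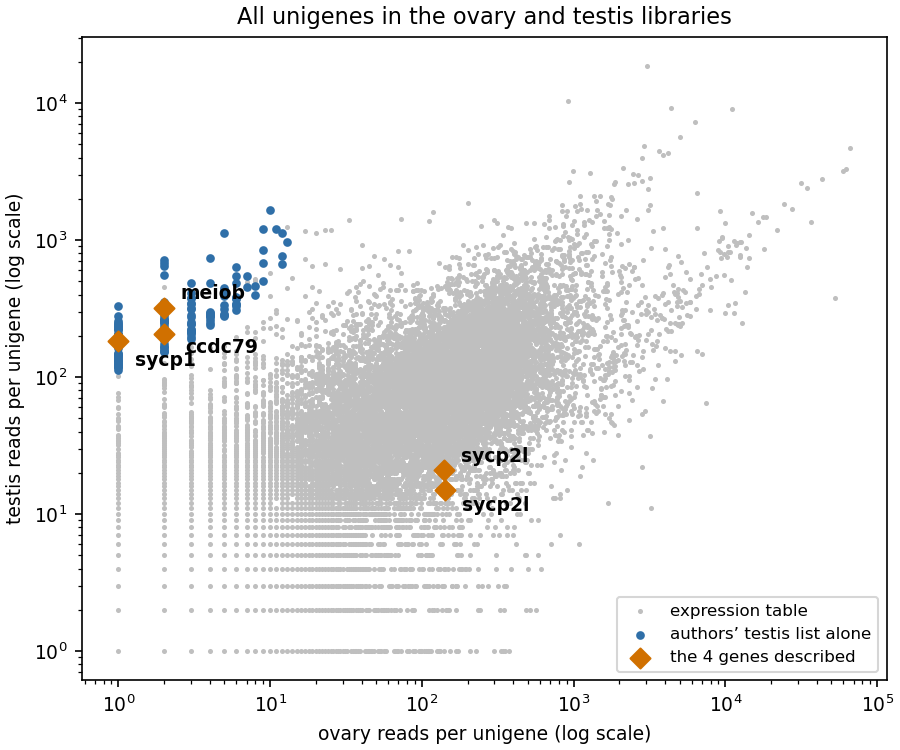
Ovary reads against testis reads per unigene, both on log scales, for unigenes of the expression table (grey), those from the authors' testis list alone (blue) and the 4 genes described (orange diamonds). The sycp1, meiob and ccdc79 diamonds sit among the blue points at 1 or 2 ovary reads, and the sycp2l diamonds lie at 140 and 143 ovary reads on the lower edge of the dense grey cloud.

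Of the direct partners fixed for naming, terb2, rpa1 and spo11 had rows, all in the expression table. They are given with the reads of their unigenes summed. The telomere partner terb2 had 3 unigenes with 94 ovary and 123 testis reads, against 2 and 205 reads for ccdc79. The terb2 sum was 1.74-fold higher in testis (95% interval 1.32 to 2.31), but 1.02-fold higher in ovary as deposited. The 3 terb2 unigenes scored from -0.31 to 1.72. For the large replication protein A subunit rpa1, which coats single-stranded DNA, 1463 ovary and 2393 testis reads gave 2.18-fold higher in testis (95% interval 2.04 to 2.33). As deposited, rpa1 was 1.23-fold higher in testis. The break-forming enzyme gene spo11 had 238 ovary and 238 testis reads, on the testis side of the median by 1.33-fold (95% interval 1.11 to 1.60) and 1.33-fold higher in ovary as deposited. The ratios of sycp1, meiob and ccdc79 were farther toward testis, but these genes have rows only through the authors' testis list, so that gap follows from how they entered and is a description.

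Other genes of the same steps went both ways, and those in this paragraph were named for their role after their values were seen. The subunit gene rpa2 was 1.79-fold higher in testis and rpa3 2.26-fold higher in ovary. The strand-exchange cofactors mnd1 and psmc3ip were 2.05-fold and 2.10-fold higher in testis. The gene trip13, an ATPase that remodels meiotic axis proteins, was 2.46-fold higher in ovary. The telomere protein gene terf1 was 2.08-fold higher in ovary. The gene prdm9, a histone methyltransferase that places breaks in mammals, was 1.5-fold higher in ovary. As deposited, rpa2, mnd1 and psmc3ip were 1.01-fold, 1.16-fold and 1.18-fold higher in testis. The deposited values of rpa3, trip13, terf1 and prdm9 were 4.01-fold, 4.38-fold, 3.69-fold and 2.67-fold higher in ovary. Summed over their unigenes, with paralogues pooled, other genes of the lists were also at least 4-fold apart, against 5.90-fold toward ovary for sycp2l. These were cdk2 (5.98-fold), rad54l (5.41-fold) and exo1 (4.31-fold) toward ovary, and mlh3 (4.87-fold) and rad21b (74.1-fold) toward testis. As deposited, their folds were 10.6, 9.61 and 7.67 toward ovary, and 2.74 and 41.7 toward testis. Pooling put stag1a together with stag1b. No row was found for sycp2, sycp3, hormad1, spata22, majin, dmc1, stag3, rec8 or smc1b, so these direct partners were not analysed here.

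**Figure D3:**
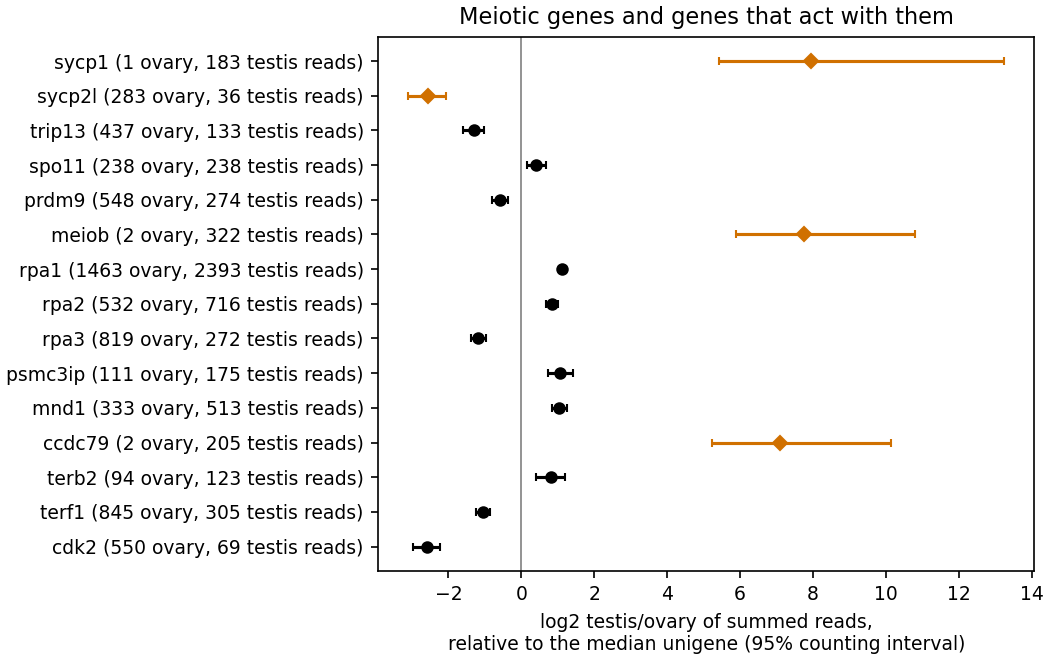
Log2 of the testis to ovary ratio of summed reads, relative to the median unigene, for the 4 genes described (orange diamonds) and genes that act in the same steps (black), with 95% counting intervals and reads beside each name. The points of sycp1, meiob and ccdc79 lie above 7 on this log2 scale, while the black points of spo11, terb2 and rpa1 lie at or below 1.12.

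Over 7 gene lists of meiosis, 49 of 100 symbols had a row. The symbols include synonyms, so terb1, the other name of ccdc79, counts among those without a row. Without the 4 members the lists held 121 unigenes, and 119 of them passed the 5-unit minimum. Past 4-fold there were 16 (13.4%) toward testis and 7 (5.88%) toward ovary, against 13.8% and 11.2% of all unigenes tested. Their median score was 0.11, against 0 for all unigenes by construction. As deposited, the counts were 7 and 22 of the 119, where the shares over all unigenes tested were 6.14% and 23.2%.

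For single-strand DNA binding and strand exchange, 38 unigenes besides meiob had a median score of 0.40. Past 4-fold there were 2 (5.26%) toward testis and 2 (5.26%) toward ovary, against 13.8% and 11.2% of all unigenes tested. The testis-rich unigenes were low ones of brca2, a gene of DNA repair by recombination, with 2 ovary and 7 testis reads and with 1 ovary and 11 testis reads. Over all 10 brca2 unigenes there were 78 ovary and 89 testis reads. The ovary-rich ones belonged to rad54l, a helper of strand invasion, with 257 ovary and 32 testis reads and with 39 ovary and 6 testis reads.

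For telomere attachment, 16 unigenes besides ccdc79 had a median score of -0.87. Past 4-fold there were 1 (6.25%) toward testis and 3 (18.75%) toward ovary, against 13.8% and 11.2% of all unigenes tested. Ovary-rich unigenes were those of the kinase cdk2 (550 ovary and 69 testis reads), of its activator spdya (151 ovary and 23 testis reads) and of the telomere cap gene acd (252 ovary and 46 testis reads). Summed over their unigenes, spdya (299 ovary and 83 testis reads) was 2.70-fold and acd (390 and 138) 2.12-fold higher in ovary. The testis-rich one was a low terf2ip unigene with 1 ovary and 9 testis reads, while all 3 unigenes of this telomere protein held 627 ovary and 173 testis reads. In the list that holds ccdc79, 13 of the 16 others thus lay below the median of all unigenes. Most of the 16 have lower unigene numbers, and lower-numbered unigenes as a whole had a median score of -0.88.

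Cohesin proteins hold sister chromatids together. The 38 unigenes of this list had a median score of 0.92. Of 37 past the minimum, 9 (24.3%) were at least 4-fold toward testis and 1 (2.70%) toward ovary. Over all unigenes tested these shares were 13.8% and 11.2%. All 9 have higher unigene numbers, and higher-numbered unigenes as a whole had a median score of 1.07. The most uneven was rad21b, a cohesin subunit that is also known from the authors' testis list alone, with 5 ovary and 278 testis reads. The meiotic form rad21l1 differed less, with 126 ovary and 53 testis reads. For stag1a, a subunit that binds the cohesin ring, 3 of 4 unigenes passed 4-fold toward testis, with 1 to 4 ovary and 21 to 59 testis reads. Its copy stag1b went both ways, and all 7 stag1 unigenes together were 1.46-fold higher in testis, but 1.22-fold higher in ovary as deposited. The cohesin loader genes nipbla and nipblb gave 3 of the 9, with 171 ovary and 532 testis reads in nipbla, 17 and 54 in nipblb Unigene_55433, and 1 and 6 in nipblb Unigene_58235. The acetyltransferase gene esco1 gave 2, with 18 ovary and 67 testis reads and with 4 and 20. Its relative esco2 held the ovary-rich unigene, with 412 ovary and 45 testis reads.

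For crossover, 24 unigenes had a median score of -0.36. Of 23 past the minimum, 4 (17.4%) were at least 4-fold toward testis and 1 (4.35%) toward ovary. Over all unigenes tested these shares were 13.8% and 11.2%. The mismatch repair gene mlh3, which acts in crossover formation, gave 3 of the 4. Its 6 unigenes together held 20 ovary and 73 testis reads, 4.87-fold higher in testis (95% interval 2.93 to 8.43) and 2.74-fold as deposited. The other was a mus81 unigene with 1 ovary and 4 testis reads, from a gene for a crossover nuclease with 268 ovary and 168 testis reads in all. The ovary-rich unigene was that of the exonuclease exo1, with 437 ovary and 74 testis reads. The list for double-strand break formation had 4 unigenes, of spo11 and prdm9, and none was 4-fold apart. In the synaptonemal complex and axis list only trip13 had a row besides sycp1 and sycp2l, 3 of 14 symbols. No symbol of the 10 for meiotic entry had a row.

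**Figure D4:**
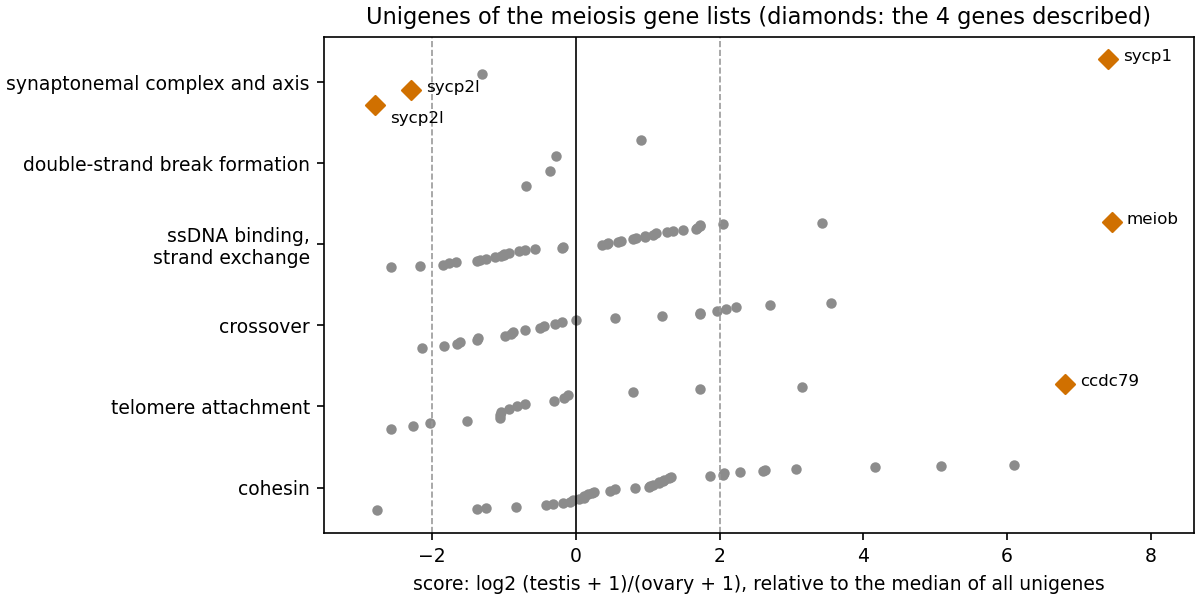
Scores of every unigene in the 6 meiosis lists with rows, with vertical spread for display only; the dashed lines mark 4-fold and the solid line the median of all unigenes. The sycp1, meiob and ccdc79 diamonds lie from 6.81 to 7.46, and the nearest grey point is rad21b at 6.09, the 1 other unigene of these lists that entered through the authors' testis list alone.

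The unigenes closest to each member in both libraries were found by distance on log2(ovary + 1) and log2(testis + 1), over 2 libraries only. Nearest to sycp1 were anxa6 (1 ovary and 182 testis reads), mdkb and loc564077 (each 1 and 180). Nearest to meiob were eef2l2 (2 and 321 reads), cadm2a (2 and 349) and serpinf1 (2 and 352). Nearest to ccdc79 were ncam1a and itgb1a (each 2 and 210) and prickle1b (2 and 213). Nearest to Unigene_7759 of sycp2l were timm9, si:dkey-274m17.3 and ccbe1, and gtf3c6 had the very reads of Unigene_7760, 143 and 15. Within a distance of 0.5 lay 35 unigenes for sycp1, 15 for meiob, 30 for ccdc79, and 232 and 115 for sycp2l. With 2 libraries such closeness is shared by many unigenes.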

How the data were processed

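Per the labels' protocols, TRI-reagent RNA of immature gonads went into NEB Next Ultra libraries. What aligner, assembler, counter and build were used is not given in the sources used here. Each deposited value is a signal under a column headed baseMean. From that name and the even steps of the values, it was taken as reads per unigene divided by 1 size factor per library. Steps of 2.31 units (ovary) and 1.73 units (testis) were taken as 1 read, giving whole reads within 0.01 for 22632 and 22633 of 22634 values. The product of the size factors is 0.25 on this reading and 1 if a step stands for 2 reads, so a step may be a read pair. Then all read numbers double, while ratios stay. The log2 and p-value columns are the authors' own, per the file headers. Ovary is column A and testis column B, as the titles of the authors' lists imply. The table has 22487 unigenes, and 147 from the testis list were added. Symbols were matched on the first gene name, and lists also with a paralogue ending, so smc1al was not counted as smc1a. Of the 4 member symbols, sycp1 and sycp2l matched RefSeq (ASM1834038v1), used for names only. No count model was fitted, since 1 library per tissue leaves no spread. Named were all members, list unigenes at least 4-fold apart, fixed direct partners and the 3 nearest unigenes, plus some genes of the same steps chosen after their values were seen. Members and lists were chosen with earlier results of these data known. The scoring was tested on simulated data. Python 3.11.15, numpy 2.4.6, pandas 2.3.3 and scipy 1.17.1 were used.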

Additional observations from a re-analysis of the deposited data

How the results depend on the processing

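The alternatives run were pseudocounts of 0.1 and 10, values as deposited, a trimmed mean of log ratios, equal totals and medians by unigene number. No member changed direction under any of them. For sycp1, meiob and ccdc79 this says little, as entry through the authors' testis list had fixed their direction. With a pseudocount of 10, the scores were 5.29 for sycp1, 5.84 for meiob and 5.20 for ccdc79, which is the construction of that scale at 1 or 2 ovary reads. The sycp2l score of Unigene_7759 was -3.12 as deposited, -1.54 with equal totals and -1.41 relative to the lower unigene numbers. That of Unigene_7760 was -2.04 with equal totals and -1.91 relative to the lower numbers. With the sycp2l unigenes summed it was -3.37 as deposited and -1.79 with equal totals. Past 4-fold toward testis there were 3 members, and 0 in the expression table alone, which holds none of these 3. The count toward ovary, 2, was 1 with equal totals, 0 at 8-fold and 1 with unigenes of a symbol summed.

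Over all unigenes, 2984 passed 4-fold toward testis and 2422 toward ovary. Toward testis the count was 1280 with a pseudocount of 10, 1329 as deposited, 5025 with equal totals, 5902 at 2-fold, 1136 at 8-fold and 749 with symbols summed. Toward ovary it was 5022 as deposited, 1181 with equal totals, 5897 at 2-fold, 948 at 8-fold and 990 with symbols summed. Of the other genes of the meiosis lists, the 16 toward testis became 4 with a pseudocount of 10, 7 as deposited, 30 with equal totals, 10 with a minimum of 20 units, 40 at 2-fold, 7 at 8-fold and 4 with symbols summed. The 7 toward ovary became 22 as deposited, 1 with equal totals, 28 at 2-fold, 0 at 8-fold and 2 with symbols summed. Except with a minimum of 20 units or symbols summed, these counts are out of 119 list unigenes, against 21649 over all. Counts with symbols summed are of symbols, of which the expression table has 9349, so they cannot be set beside counts of unigenes. The genes named earlier as at least 4-fold apart when summed were counted otherwise, with paralogues pooled and folds relative to the median unigene.

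No unigene was listed below 1 read in either library, so transcripts read in a single library are outside these values. No paired analysis was possible because each tissue has 1 library.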

Other observations

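The log2 and p-value columns of the authors' testis list do not always belong to the values beside them. In the expression table, the deposited log2 equalled the log2 of the row's own values within 0.001 for all 22487 unigenes, and the same held for all 127 of the ovary list. In the testis list this held for 38 of 171 unigenes, and for the other 133 the deposited log2 was higher in every case, by 0.0011 to 0.093. For the 24 testis-list unigenes that are also in the expression table, the ovary and testis values were the same in both files, but the log2 was the same for only 10.

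The 3 testis-rich meiotic genes are among the 133. In the authors' deposited testis list ccdc79 has a log2 of 6.30 with a p-value of 0.0309, while its own values give 6.26. Exactly that log2 and p-value also stand beside itgb1a, whose 2 ovary and 210 testis reads do give that log2. For meiob the authors' deposited testis list has 6.92 with a p-value of 0.0275, and its own values give 6.92 and differ by 0.0089. The same pair stands beside cldn7a and zgc:153157, whose own values do give that log2. For sycp1 the deposited log2 is 7.11 with a p-value of 0.0156 and its own values give 7.10, and no other unigene carries that pair. In all, 29 of the 133 carry the same log2 and p-value as another unigene whose own values give that log2. No p-value was recomputed. The folds of the report were computed from the values and not from these columns, and the shifts are small beside the counting intervals. The deposited p-values of the 3 genes are tied to the same columns, and whether they belong to these genes was not tested.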
